A study of Mus musculus with 24 samples.

Results

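The transcriptional response of Lyn-deficient dendritic cells to CpG-B was measured by comparing 3 arrays of stimulated Lyn-KO cultures with 3 arrays of unstimulated Lyn-KO cultures. These are 6 of the 24 arrays of the study, chosen by their sample titles. A feature belonged to the response set when its probe exceeded background clearly on each of the 3 arrays of at least 1 group, which held for 19288 of 20210 features tested, 12183 of them genes with a symbol. Being well above background is the scanner software's own call that a spot exceeds its local background.

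All cells came from mice on a C57BL/6 background. Bone marrow was cultured with human Flt3 ligand at 100 ng/ml until day 9, a culture that grows plasmacytoid and conventional dendritic cells together, and it was then left unstimulated (US) or given CpG-B ODN 1668 at 150 nM for 6 h. Lyn-KO cells lack the tyrosine kinase Lyn. The other genotypes, used only to show where the Lyn-KO response differs, were wild type (WT), Irf5-KO, lacking the transcription factor Irf5, and DKO, lacking both, each with 3 US and 3 CpG-B arrays. The labels give a biological triplicate per genotype, so p-values measure the spread between these cultures, and 3 arrays per group limit the precision. The arrays read bulk RNA of a mixed culture: fewer cells of a type and less RNA per cell cannot be told apart.

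CpG-B is a synthetic DNA that enters endosomes and binds Toll-like receptor 9. Through the adaptor MyD88 the receptor activates NF-kB, MAP kinases and interferon regulatory factors, among them Irf5 and Irf7, which switch on inflammatory cytokines and type I interferons. Secreted interferon then acts back on the culture through its receptor and factors that include Stat2 and Irf9 and bind interferon-stimulated response elements. Lyn is a Src-family kinase of myeloid and B cells that acts both in activating receptors and, with the phosphatases Ptpn6 and Inpp5d, in inhibitory ones, and it is known as a negative regulator of Irf5.

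The promoter windows of 5 genes are shown because the results below turn on the genes they start: an interferon beta and an interferon alpha, an interferon-stimulated gene, a chemokine and a cytokine. Each runs from 250 bases before to 50 bases after the RefSeq start on build GRCm38.p6, in the direction of transcription. Capitals mark a match on either strand to the core of the interferon-stimulated response element, GAAA and GAAA with any 2 bases between, or to an NF-kB site pattern, GGGA and CC with any 4 bases between.
Ifnb1: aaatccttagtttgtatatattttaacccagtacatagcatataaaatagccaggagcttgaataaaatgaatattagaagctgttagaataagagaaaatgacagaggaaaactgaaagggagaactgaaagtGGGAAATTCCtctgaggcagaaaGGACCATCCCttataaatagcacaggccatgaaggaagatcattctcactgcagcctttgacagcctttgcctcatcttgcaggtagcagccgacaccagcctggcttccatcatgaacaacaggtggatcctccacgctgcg
Ifna4: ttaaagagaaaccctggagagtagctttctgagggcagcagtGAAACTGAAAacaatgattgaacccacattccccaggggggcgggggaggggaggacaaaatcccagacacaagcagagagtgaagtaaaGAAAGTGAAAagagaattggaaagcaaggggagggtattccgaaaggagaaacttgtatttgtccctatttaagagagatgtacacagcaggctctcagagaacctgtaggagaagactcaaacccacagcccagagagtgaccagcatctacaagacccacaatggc
Ifit3: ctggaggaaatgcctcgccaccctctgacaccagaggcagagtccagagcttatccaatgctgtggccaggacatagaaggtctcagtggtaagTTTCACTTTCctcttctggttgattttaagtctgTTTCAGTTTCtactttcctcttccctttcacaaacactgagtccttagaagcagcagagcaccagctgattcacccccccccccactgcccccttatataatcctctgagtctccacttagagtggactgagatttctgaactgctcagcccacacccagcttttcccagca
Cxcl10: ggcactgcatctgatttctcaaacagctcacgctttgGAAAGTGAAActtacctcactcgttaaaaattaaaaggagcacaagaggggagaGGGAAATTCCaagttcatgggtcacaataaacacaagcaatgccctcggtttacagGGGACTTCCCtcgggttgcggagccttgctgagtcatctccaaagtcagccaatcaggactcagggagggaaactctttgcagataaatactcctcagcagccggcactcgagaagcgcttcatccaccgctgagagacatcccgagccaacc
Il6: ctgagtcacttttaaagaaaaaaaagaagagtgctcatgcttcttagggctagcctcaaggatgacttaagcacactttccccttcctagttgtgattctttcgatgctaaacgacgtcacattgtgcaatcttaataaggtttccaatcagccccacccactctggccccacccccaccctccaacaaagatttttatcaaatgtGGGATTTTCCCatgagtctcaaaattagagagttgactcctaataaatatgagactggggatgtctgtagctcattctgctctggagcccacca
The Ifnb1 window lies at chr4:88522745-88523044 on the minus strand and holds 2 NF-kB patterns and no match to the response element letters. The Ifna4 window, at chr4:88841566-88841865 on the plus strand, holds 2 response elements and no NF-kB pattern. The Ifit3 window, at chr19:34583279-34583578 on the plus strand, also holds 2 response elements and no NF-kB pattern. In the Cxcl10 window, at chr5:92348840-92349139 on the minus strand, stand 1 response element and 2 NF-kB patterns. The Il6 window, at chr5:30012864-30013163 on the plus strand, has 2 overlapping NF-kB patterns, read in 1 run on opposite strands.

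Over windows of the same length, the response element letters stood in 3.44% of all RefSeq promoter windows and in 3.37% of those of the named genes tested. They stood in 17.9% of the 407 windows of genes with a fitted rise of at least 8-fold in Lyn-KO cells. It was 2.43% in the 247 windows of genes with a fitted fall of at least 8-fold, and 2.69% in those of genes that were not called. The share was 40.9% in the 44 windows of the antiviral interferon-stimulated genes and 61.5% in the 13 windows of the interferon genes. The latter include interferon alpha genes that are near-identical copies, so those windows are not independent. The NF-kB letters stood in 20.7% of all windows and in 26% of those of the named genes tested. In genes with the fitted 8-fold rise the share was 31.2%, and in the 20 windows of the NF-kB subunits and inhibitors 65.0%. These shares describe letters in a window, not binding.

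The targeted gene was read first. The Lyn probe gave 0.526, 0.546 and 0.596 in unstimulated Lyn-KO cells, as multiples of each array's 75th percentile, the unit of every signal given here, with replicates 1 to 3 in order. Unstimulated WT cells gave 1.68, 2.20 and 2.06, and the Lyn-KO level was lower by a log2 difference of -1.82 ± 0.09 (adjusted p = 8.4e-10, limma with Benjamini-Hochberg adjustment). A Lyn signal above background thus remained in Lyn-KO cells, and it rose with CpG-B to 0.852, 0.854 and 0.853, a log2 change of 0.62 ± 0.09. Stimulated WT cells gave 4.87, 4.49 and 4.56, all above the Lyn-KO arrays. The Irf5 probe gave 28.6, 29.0 and 27.6 in unstimulated Lyn-KO cells and 22.4, 22.9 and 22.1 after CpG-B. It gave 21.4, 21.0 and 22.4 in unstimulated cells labelled Irf5-KO and 22.9, 23.4 and 23.5 in those labelled DKO, so this probe does not check the Irf5 deletion, and those genotypes are named here by their labels alone.

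CpG-B changed most of what was measured. Of the 19288 features of the response set, 6545 rose and 7003 fell at an adjusted p of 0.05 (limma with Benjamini-Hochberg adjustment over all 20210 features), and 5740 were not called. Over all features tested, 32.8% were called higher and 36.1% lower. By fitted change, at least a 2-fold rise was seen in 2756 and at least a 2-fold fall in 2642. The largest fitted changes leaned upward: 600 rose and 281 fell at least 8-fold, and 156 rose and 29 fell at least 32-fold. The median over the response set was 0.005 on the log2 scale. Changes below are log2 differences, CpG-B minus US, ± the fit's standard error (n = 3 arrays in each group), and "rose" or "fell" is used only where the adjusted p passed 0.05. For 361 features of the response set with a positive fitted change and 258 with a negative one, no array of the lower group was well above background. The fold given for such a gene is then a lower bound. Counts by fold, here and below, use fitted changes, which for these features can exceed the bound. Tlr11, for example, was fitted at -5.84 but its bound is 18.0-fold.

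Unstimulated Lyn-KO arrays correlated with each other at 0.9909 to 0.9949 and stimulated ones at 0.992 to 0.9941 (Pearson, across features), against 0.901 to 0.9072 between the groups. The share of spots well above background ran from 41.0% to 53.3% on the US arrays and from 47.4% to 49.6% on the CpG-B arrays, and no spot was saturated. Each group sat at the same position on each of the 3 slides, so position and group cannot be told apart. At the edge of the set, 2731 features were measured on all 3 arrays of only 1 group, with a median signal there of 0.197, and 601 features outside it were measured on 2 arrays, with a median of 0.125.

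Most interferon genes were dim without CpG-B and bright with it. Of 14 type I and type III interferon genes tested, 13 rose, with a median change of 7.85 over the list, or 7.45 with bounded genes at their bound, against -0.01 over all features. Only 1 of the 14, Ifnl3, was measured on every array of both groups. The others entered the test through the stimulated group, where a gene measured only there has to be higher, so this count is a description. Ifnb1, which encodes interferon beta, read 0.120, 0.0940 and 0.0950 in unstimulated and 31.7, 33.2 and 33.6 in stimulated Lyn-KO cells. It was well above background on 1 unstimulated and 3 stimulated arrays, and rose by 8.33 ± 0.25 (adjusted p = 7.6e-16). The groups lay far apart and the stimulated arrays close together. Ifna4 went from 0.0350, 0.0125 and 0.0202, on no array well above background, to 4.34, 4.73 and 4.69, at least 67.0-fold higher. Ifna7 and Ifna13 rose at least 168-fold and at least 210-fold, and Ifna5 reached 44.2, 46.5 and 84.4, with the third array highest. The interferon alpha genes are near-identical copies that probes may read together, so their values are not independent. Ifnl3, an interferon lambda that acts mainly on epithelia and some leukocytes, started well above background at 3.73, 3.56 and 3.55 and rose to 11.9, 11.5 and 10.9, a change of 1.66 ± 0.12, while its dimmer probe gave 8.49. Ifnk was the member that was not called, at 0.32 ± 0.19 (adjusted p = 0.14).

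**Figure D1:**
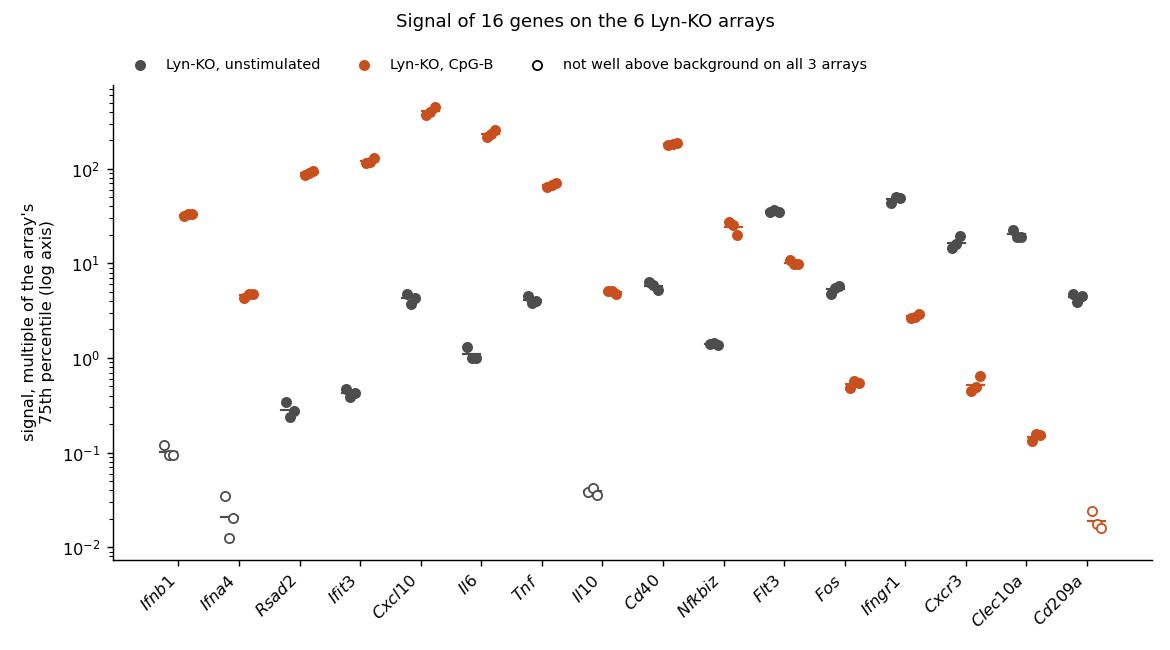
Signals of 16 genes on the 6 Lyn-KO arrays (y axis, multiples of the array's 75th percentile, log scale; US and CpG-B side by side). Points are arrays, hollow where fewer than 3 arrays of the group had the gene well above background, and lines are group means of the log signal; Ifnb1 went from 0.0940 to 0.120 without to 31.7 to 33.6 with CpG-B.

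The genes that interferon is known to switch on rose too, almost without exception. Their dependence on secreted interferon was not tested. All 44 antiviral interferon-stimulated genes tested rose, by 1.57 ± 0.08 for the tetherin gene Bst2 at the lower end and 8.32 ± 0.28 for Rsad2, whose product viperin makes a chain-terminating nucleotide, at the upper end, with a median of 4.81. Rsad2 read 0.345, 0.238 and 0.276 and then 86.2, 90.3 and 94.9. Ifit3, of the family that binds viral RNA, went from 0.475, 0.390 and 0.426 to 114, 118 and 129, and its window above holds 2 response elements. Isg15, a ubiquitin-like modifier, rose by 6.82 ± 0.21 to 978, 1110 and 1120, and Usp18, which removes it and damps the interferon receptor, from 1.17, 0.988 and 1.13 to 198, 200 and 202. In none of these genes did the groups overlap. Of 17 interferon-inducible GTPases, which attack the vacuoles of intracellular pathogens, 16 rose with a median of 4.66: Gbp7 changed by 6.47 ± 0.44, Tgtp2 by 6.30 ± 0.42 and Igtp by 5.66 ± 0.25, while Gbp8, at 0.30 ± 0.19, was not called (adjusted p = 0.18). Gbp, Tgtp and Oas genes include close copies whose signals may be shared.

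The machinery that reads interferon moved in both directions. Of 16 genes of interferon receptor signalling 13 rose and 3 fell. Among the risers were transcription factors and a kinase: Stat2 rose by 3.11 ± 0.09, Irf9 by 1.99 ± 0.11 and Jak1 by 1.16 ± 0.06. The fallers were receptor chains. Ifnar1 and Ifnar2, the chains of the type I receptor, fell by 1.53 ± 0.09 and 1.58 ± 0.09, with another Ifnar1 probe at -0.25. Ifngr1, the ligand-binding chain for interferon gamma, dropped from 42.9, 50.2 and 49.3 to 2.66, 2.69 and 2.92, a fall by 4.10 ± 0.07, whereas its partner Ifngr2 rose by 1.00 ± 0.06. Ifnlr1, the chain specific for interferon lambda, went up from 1.07, 1.16 and 1.15 to 3.86, 4.45 and 5.52, a rise of 2.02 ± 0.21. Among the 9 interferon regulatory factors 7 rose. Irf7, the factor behind the second wave of interferon alpha, led with a climb from 1.29, 1.03 and 1.02 to 108, 100 and 83.4, by 6.45 ± 0.20. Irf1 and Irf4 rose by 1.75 ± 0.20 and 1.5 ± 0.10, Irf5 fell by 0.34 ± 0.09, and Irf8, which plasmacytoid and type 1 conventional dendritic cells need, stayed uncalled at -0.17 ± 0.09 (adjusted p = 0.11).

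Inflammatory cytokines rose with few exceptions. Of 21 tested, 18 rose and 3 fell, with a median of 3.43. On all arrays of both groups 10 were measured, and of these 7 rose and 3 fell, with a median of 2.89. The same count was 12 higher and 1 lower of 15 chemokines, and 40 higher of 40 antiviral genes. Il6, which drives acute phase and B cell responses, went from 1.30, 1.01 and 0.992 to 214, 234 and 257, a change of 7.74 ± 0.12 (adjusted p = 3.1e-19). Tnf, which activates NF-kB in neighbouring cells, went from 4.47, 3.81 and 3.96 to 63.7, 66.5 and 71.2, a change of 4.04 ± 0.17. The replicates of either group lay within a narrow band for both genes, and the groups did not overlap. Il10, an inhibitor of antigen-presenting cells, was on no unstimulated array well above background and read 5.15, 5.08 and 4.73 after CpG-B, at least 69.7-fold higher. Il19, of the same family, read 5.70, 6.01 and 5.12, at least 81.9-fold higher. Lta, which encodes lymphotoxin alpha, rose by 7.22 ± 0.18, while Ltb, the membrane partner that anchors it, fell by 0.78 ± 0.09. The interleukin 27 subunits Il27 and Ebi3 rose by 3.43 ± 0.16 and 4.30 ± 0.05. Among genes of the inflammasome cytokines Il1b rose by 2.52 ± 0.14 and Il18 by 3.26 ± 0.10, and Il1rn, which encodes the receptor antagonist, by 5.95 ± 0.37. Il12a, the smaller interleukin 12 subunit, rose by 1.02 ± 0.24. Il16, a lymphocyte attractant, fell from 5.39, 5.47 and 5.47 to 0.346, 0.312 and 0.337, and Tgfb1 fell by 1.14 ± 0.08.

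All 6 tumour necrosis factor superfamily ligands tested rose, among them all 5 that were measured on all arrays of both groups. Tnfsf15, which acts on the death receptor DR3 of T cells, rose by 6.55 ± 0.23, Cd70, the ligand of CD27, by 4.81 ± 0.12 and Tnfsf9, the ligand of 4-1BB, by 3.71 ± 0.09. Tnfsf10, which encodes TRAIL, rose by 6.19 ± 0.27 and Tnfsf14, which encodes LIGHT, by 2.23 ± 0.22. Of 18 chemokines 15 rose, with a median of 3.32. Cxcl10, which draws Cxcr3-bearing T and NK cells, went from 4.77, 3.75 and 4.31 to 368, 398 and 453, a change of 6.57 ± 0.31. Ccl3 and Ccl4, attractants of T cells and monocytes, rose by 5.26 ± 0.13 and 5.20 ± 0.16, and Xcl1, the ligand of the cross-presenting cells' receptor Xcr1, by 4.64 ± 0.28. Ccl12 was at least 69.9-fold higher. Cxcl16 and Cx3cl1, both made as membrane-tethered ligands, were not called at 0.18 ± 0.10 and 0.05 ± 0.11 (adjusted p = 0.11 and 0.71). With the replicate number as a block Cxcl16 passed (adjusted p = 0.0485), as it did without the first stimulated Lyn-KO array (0.0122). Ccl6 was called lower at -0.27 ± 0.12, with an adjusted p of 0.049 and overlapping groups, and with the replicate number as a block it was not called (adjusted p = 0.0524), nor without unstimulated array 1 or 3 or stimulated array 1 or 2 (0.0619 to 0.206). Of 12 chemokine receptors 4 rose and 7 fell, against 32.8% and 36.1% of all features. Ccr7, which guides mature dendritic cells to lymph nodes, climbed from 87.3, 80.1 and 82.5 to 635, 660 and 651, and Cxcr5 rose by 3.88 ± 0.17. Cxcr3, on plasmacytoid cells a receptor for Cxcl10, fell from 14.7, 15.9 and 19.3 to 0.449, 0.491 and 0.647, and Ccr2, which marrow-derived cells use to leave the blood, fell by 3.21 ± 0.10.

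**Figure D2:**
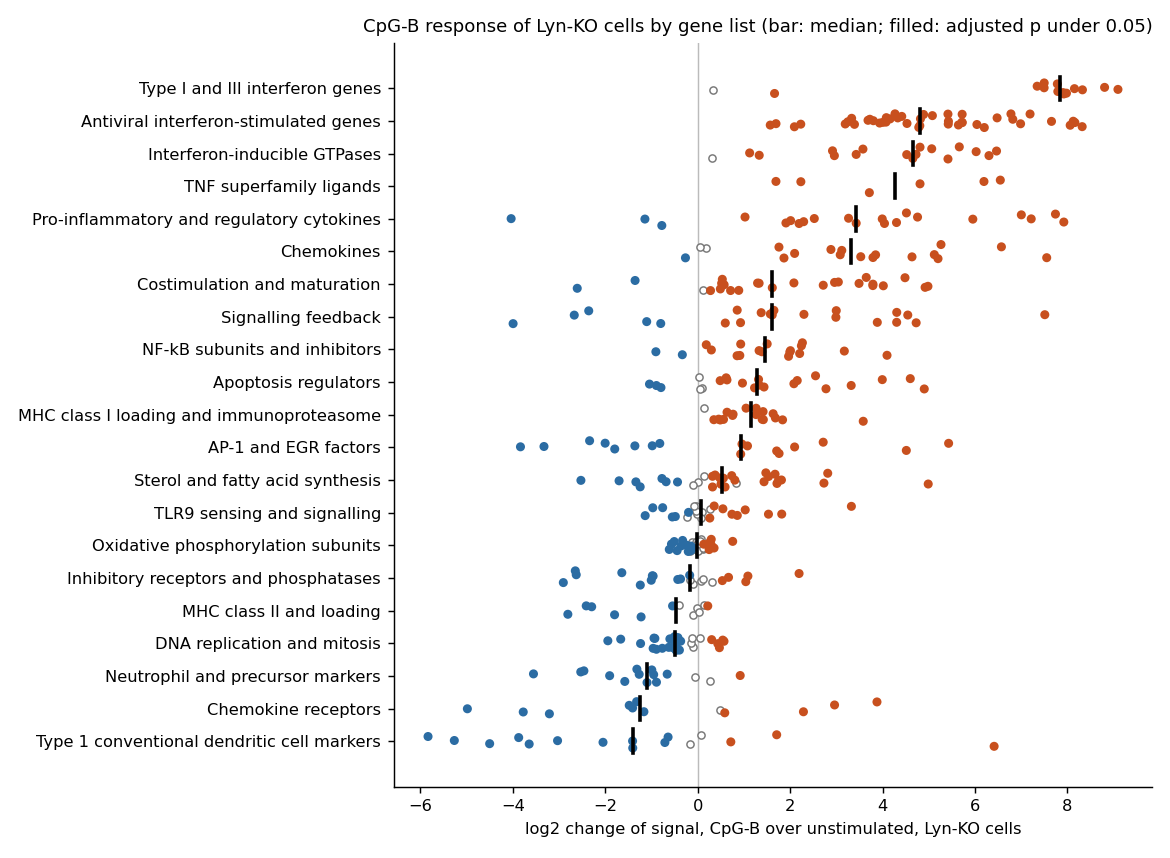
Log2 change of each tested gene with CpG-B in Lyn-KO cells (x axis), grouped by gene list (y axis); filled points passed an adjusted p of 0.05 in limma, orange higher and blue lower, and bars mark list medians. The interferon genes lie farthest to the right with a median of 7.85, and replication, type 1 conventional dendritic cell and neutrophil lists lie left of 0.

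Downstream of the receptor, inhibitors of NF-kB rose beside its subunits other than Rela: 16 of 18 were called higher, with a median of 1.45. That count includes Rela, and under quantile normalisation it was 14. Nfkbiz, an atypical inhibitor protein needed for secondary genes such as Il6, went from 1.40, 1.43 and 1.37 to 27.4, 25.2 and 19.9, a change of 4.10 ± 0.14. The precursors Nfkb2 and Nfkb1 rose by 2.21 ± 0.07 and 0.91 ± 0.15 and Relb by 1.5 ± 0.08. The subunit Rela was called at 0.29 ± 0.05, but not under quantile normalisation (adjusted p = 0.515) or normexp, where it stood at -0.032 (adjusted p = 0.566), so no direction is drawn for it. The feedback inhibitors Nfkbia, which holds NF-kB in the cytoplasm, and Tnfaip3, a ubiquitin editor also called A20, rose by 1.99 ± 0.08 and 2.24 ± 0.08. Cyld and Tnip2 fell, by 0.91 ± 0.08 and 0.33 ± 0.08. The AP-1 and EGR genes split, 9 up and 8 down of 17, against 32.8% and 36.1% of all features. Batf, Batf2 and Jun rose by 4.51 ± 0.06, 5.43 ± 0.36 and 2.72 ± 0.06. Below their unstimulated level at 6 h were Fos, Egr1 and Egr2: Fos read 4.80, 5.53 and 5.78 without and 0.487, 0.567 and 0.550 with CpG-B, Egr1 fell by 2.34 ± 0.17 and Egr2 by 3.84 ± 0.25. Of 21 feedback genes 16 rose. Socs1 and Socs3, which block cytokine receptor kinases, rose by 4.73 ± 0.22 and 4.55 ± 0.18, and the MAP kinase phosphatase Dusp1 by 3.89 ± 0.14. Zfp36l2, which destabilises messages, fell from 57.5, 69.5 and 67.4 to 3.69, 4.04 and 4.46, by 4.0 ± 0.11.

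The receptor pathway had no common direction. Of 23 genes of TLR9 sensing and signalling 9 rose, 6 fell and 8 were not called, with a median of 0.08 that turned to -0.077 under quantile normalisation and -0.039 under normexp. Both shares lie near those over all features, 32.8% and 36.1%. Tlr9 rose by 0.54 ± 0.06 and its adaptor Myd88 by 1.82 ± 0.06. The kinase Map3k8, which links NF-kB precursors to the ERK pathway, climbed from 0.936, 0.929 and 1.01 to 8.99, 9.52 and 10.4. The adaptor Tirap and the kinase Irak1 fell by 1.14 ± 0.05 and 0.76 ± 0.07, and Unc93b1, which carries TLR9 to endosomes, was not called at 0.10 ± 0.06 (adjusted p = 0.17) and was called lower under quantile normalisation, at -0.147, and normexp, at -0.248. Among 25 other sensors 12 rose and 10 fell. The RNA sensors Ddx58 and Ifih1 rose by 5.72 ± 0.11 and 4.89 ± 0.09 and Tlr7 by 1.43 ± 0.08. Tlr11, a sensor of profilin and flagellin, was at least 18.0-fold lower, and Tlr13, which reads bacterial ribosomal RNA, fell by 2.21 ± 0.11. Tlr12, the partner of Tlr11, was not called at -0.01 ± 0.15 (adjusted p = 0.95).

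Maturation genes rose: 22 of 25 were called higher. Cd40, through which T cells license dendritic cells, went from 6.29, 5.90 and 5.26 to 178, 184 and 189, by 4.98 ± 0.08. Cd274, the ligand of the inhibitory receptor PD-1, rose by 4.92 ± 0.15, Cd69 by 3.79 ± 0.14 and the costimulatory gene Cd86 by 0.89 ± 0.07. Of 18 genes of class I loading 17 rose, and none fell; the coactivator Nlrc5 rose by 3.58 ± 0.17, B2m by 1.26 ± 0.09 and the peptide transporter gene Tap1 by 1.39 ± 0.15. In the class II list 6 of 12 fell, against 36.1% of all features. The peptide-exchange chain H2-DMa dropped from 57.8, 56.2 and 57.1 to 8.77, 8.02 and 7.64, and its modulator H2-Oa fell by 2.41 ± 0.07. The class II beta chain H2-Ab1 was not called at 0.15 ± 0.13 (adjusted p = 0.32).

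The kinase family of Lyn and the proteins of its inhibitory arm were mixed. Of 8 Src-family genes and their regulator 4 rose and 3 fell, against 32.8% and 36.1% of all features. Csk, which phosphorylates these kinases at their inhibitory tail, fell by 1.29 ± 0.07, Fyn by 0.38 ± 0.06 and Fgr by 0.27 ± 0.08. In the list of inhibitory receptors and phosphatases 5 of 21 rose and 11 fell. Ptpn6, which encodes the phosphatase SHP-1, rose by 0.53 ± 0.05, whereas Inpp5d, which encodes the lipid phosphatase SHIP-1, fell from 34.6, 34.8 and 36.3 to 4.95, 4.31 and 4.83, by 2.91 ± 0.08. The adaptor Dok3 fell by 2.65 ± 0.13 and Sirpa, the receptor of the "do not eat" signal CD47, by 2.63 ± 0.08. Pirb, a receptor of class I molecules, was not called at -0.11 ± 0.06 (adjusted p = 0.1), although it passed with the replicate number as a block (adjusted p = 0.0445) and without the first unstimulated array (0.0153). Its activating counterpart Pira2 fell by 0.97 ± 0.09; these genes are close copies.

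Markers of the cultured cell types were present and shifted unevenly. Their counts stand beside 32.8% of all features called higher and 36.1% called lower. Each of the 18 plasmacytoid markers tested exceeded background clearly on every one of the 6 arrays. Of them 6 rose and 8 fell, with a median of -0.12. Their summed signal, in which bright genes weigh most, went from 940 to 1000 to 1250 to 1380. The list shares Bst2 with the antiviral genes above, so the sum is not a measure of plasmacytoid cells alone. The defining lectin Siglech was not called at 0.10 ± 0.12 (adjusted p = 0.47) by its brighter probe and was called lower by the other, at -1.32, Ly6d and the master factor Tcf4 rose by 1.43 ± 0.10 and 1.38 ± 0.09, and Cox6a2 fell by 1.35 ± 0.10. Of 16 type 1 conventional markers 3 rose and 11 fell, and the sum went from 641 to 685 to 476 to 491. Clec9a, which senses dead cells, was not called at 0.07 ± 0.08 (adjusted p = 0.48) and was called lower at -0.191 under normexp, Naaa fell by 3.87 ± 0.12, and Cd8a rose from 0.332, 0.326 and 0.328 to 28.9, 25.8 and 29.5. In the type 2 list 3 of 12 rose and 6 fell, with overlapping sums of 365 to 473 without and 290 to 389 with CpG-B. The lectin Cd209a was at least 55.8-fold lower, by the brighter of its 2 probes (the weaker fitted change was -4.24), and Clec10a fell by 7.10 ± 0.49, while Mgl2 and Clec4a4 rose by 0.46 ± 0.09 and 0.41 ± 0.08, the former not called under normexp (adjusted p = 0.114). Of 7 general markers 3 rose and 2 fell, with a median of -0.005 that turned positive under median scaling and without the first stimulated or the third unstimulated array, and the sum was 642 to 678 without and 629 to 740 with CpG-B, overlapping. Flt3, receptor of the culture's growth factor, and Itgax fell by 1.80 ± 0.07 and 1.61 ± 0.08, and Cd74 rose by 0.22 ± 0.08. Zbtb46, a factor of conventional dendritic cells, was called higher by its brighter probe, at 0.30 ± 0.10. Its other probe was called lower, at -1.99, so no direction is drawn for it. Cd74 was not called under normexp (adjusted p = 0.062), with only the Lyn-KO groups fitted (0.0567) or without the third unstimulated (0.0551) or the third stimulated array (0.0979), nor Zbtb46 without the second unstimulated array (0.059).

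Marker genes of other cells were read in the same way, beside the same 32.8% and 36.1% of all features. The summed signal of monocyte and macrophage markers went from 126 to 128 to 34.4 to 37.6, while 4 of 13 genes rose and 6 fell, with a median of -0.09, or 0.025 with only probes measured on all arrays. Csf1r and Lyz2 fell by 2.43 ± 0.11 and 2.33 ± 0.20. Another Csf1r probe changed by -0.18. The Fc receptor gene Fcgr1 and Vcan rose by 2.82 ± 0.22 and 0.96 ± 0.17. Neutrophil markers went from 304 to 318 to 257 to 260, with 12 of 15 called lower, basophil and mast cell markers from 12.7 to 14.1 to 9.00 to 10.4, and T and NK markers from 14.0 to 19.5 to 18.1 to 21.1. The summed erythroid markers went from 1.22 to 1.33 to 3.48 to 3.78. B lineage markers went from 17.6 to 18.5 to 25.4 to 26.9, with 8 of 14 called higher: Fcmr, the IgM receptor, rose by 3.72 ± 0.26 and Cd79b by 1.07 ± 0.18, while Fcrla fell by 2.75 ± 0.10, Cd79a, on no stimulated array well above background, was called lower (adjusted p = 0.01), a call lost under normexp (0.274), and the plasma cell genes Jchain and Mzb1 were not called, at -0.09 ± 0.30 and -0.31 ± 0.33 (adjusted p = 0.81 and 0.41). The part of other cells in the response was not tested.

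Among housekeeping programmes replication fell. Of 34 replication and mitosis genes 25 fell and 5 rose, with a median of -0.48. Tk1, which makes thymidine phosphate, went from 7.25, 7.53 and 7.34 to 2.09, 1.91 and 1.76, the replicative helicase gene Mcm7 fell by 0.97 ± 0.10 and Mki67, a mark of cycling cells, by 0.53 ± 0.07. Of 30 sterol and fatty acid genes 19 rose and 7 fell. The mevalonate pathway genes Hmgcs1 and Idi1 rose by 1.81 ± 0.09 and 2.73 ± 0.07, and Ch25h, whose product 25-hydroxycholesterol is antiviral, by 4.99 ± 0.23. The exporter Abca1 fell by 2.53 ± 0.18 and the desaturase Scd2 by 1.70 ± 0.08. Of 22 glycolysis genes 6 rose and 9 fell, against 32.8% and 36.1% of all features. Pfkfb3 and Hk2 rose by 2.45 ± 0.09 and 2.12 ± 0.08 and Ldha fell by 1.32 ± 0.08. Oxidative phosphorylation subunits had a median of -0.02, with 8 higher, 11 lower and 18 not called of 37. Under background correction by normexp, 2 were higher and 26 lower, so no direction is drawn for them.

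Effector enzymes, acute phase genes and apoptosis regulators rose in most cases. Of 12 enzymes of nitric oxide, arginine and tryptophan metabolism 9 rose: the inducible synthase Nos2 from 0.768, 0.653 and 0.858 to 5.93, 6.37 and 5.44, its cofactor enzyme Gch1 by 2.45 ± 0.07, the prostaglandin synthase Ptgs2 by 4.91 ± 0.24 and Ido1 at least 8.93-fold. All 10 acute phase and complement genes tested rose, Saa3 by 7.60 ± 0.52 and C3 by 3.47 ± 0.15, and complement factor B (Cfb) at least 77.8-fold. Only 6 of these 10 were measured on all arrays of both groups, and all 6 rose. The same count was 5 higher and 1 lower of 8 of the enzymes. Of 22 apoptosis regulators 16 rose. Bcl2l1, which encodes the survival protein BCL-XL, rose by 3.99 ± 0.07, its antagonist Bcl2l11 by 4.90 ± 0.11 and the inflammatory caspase gene Casp4 by 4.60 ± 0.12, while Pmaip1 fell by 1.04 ± 0.08. The stress genes Trib3, Asns and Atf4 rose by 1.79 ± 0.10, 1.27 ± 0.11 and 0.64 ± 0.06, among 16 that rose and 7 that fell of 28. Nrf2 and antioxidant genes divided, with 9 higher and 4 lower of 18: Txn1 rose by 1.41 ± 0.08 and Srxn1 fell by 0.72 ± 0.11. C-type lectin receptors (6 higher, 6 lower of 15) and lysosomal genes (10 higher, 10 lower of 27) had no common direction. All counts of this paragraph stand beside 32.8% of all features called higher and 36.1% called lower.

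Some of the steepest single changes lay outside these lists. Sct, which encodes secretin, was at least 463-fold higher, Ifit1bl1 at least 352-fold and Vgf, a secreted neuropeptide precursor, at least 338-fold, all on no unstimulated array well above background. Vgf read 24.0, 23.6 and 21.8 with CpG-B. Pdzk1ip1 was measured on all 6 arrays and went from 0.210, 0.244 and 0.366 to 120, 116 and 120, by 8.80 ± 0.25. Flvcr2, a membrane transporter, was at least 127-fold higher. Downward, Gpr34, a lysophosphatidylserine receptor, went from 2.35, 2.91 and 3.04 to signals not well above background, at least 35.0-fold lower, and Vipr1, a receptor of vasoactive intestinal peptide, at least 28.8-fold by its brighter probe (the other changed by -1.3). Hpgd, which breaks down prostaglandins, was at least 35.4-fold lower.

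The same genes mostly moved the same way in the other genotypes. Of the 2756 features that rose at least 2-fold in Lyn-KO cells 2354 were called higher in WT, DKO and Irf5-KO alike, and of the 2642 that fell at least 2-fold 2413 were called lower in all 3. Among those past 32-fold by fitted change, this held for 146 of 156 that rose and for 29 of 29 that fell. Over all features, 31.2% were called higher and 37.2% lower in WT, 34.6% and 35.9% in DKO, and 31.6% and 35.2% in Irf5-KO. Across the response set the log2 changes of Lyn-KO correlated with those of WT at r = 0.943 (rho = 0.919), DKO at 0.924 (0.904) and Irf5-KO at 0.905 (0.882), across features of 1 array design, which are not independent replicates.

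**Figure D3:**
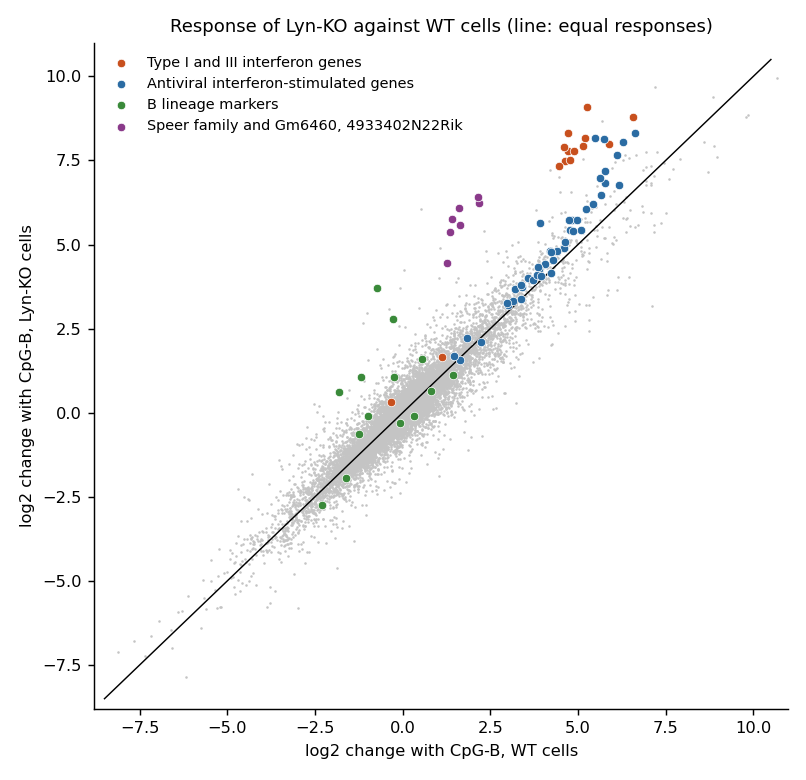
CpG-B response in Lyn-KO (y axis) against that in WT (x axis), log2 change, 1 point per feature of the response set, with interferon genes, antiviral interferon-stimulated genes, B lineage markers and Speer genes in colour and the line of equal change. The 13 called interferon genes lie above the line, Ifnb1 at 8.33 ± 0.25 in Lyn-KO and 4.72 ± 0.25 in WT.

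Tested gene by gene, the response of Lyn-KO cells differed from that of WT cells in 2237 features, 1222 more positive and 1015 more negative (interaction term in limma, adjusted p of 0.05). That was 6.05% and 5.02% of all features, and without the filter on dim probes 1395 were called. Against DKO the counts were 1710 (8.46%) and 2073 (10.3%), and against Irf5-KO 1743 (8.62%) and 2192 (10.8%). These comparisons share the 6 Lyn-KO arrays and are not independent of each other. With signals scaled to the median instead, 44.8% of the calls against WT were more positive, in place of 54.6%, so the balance of directions depends on scaling. At least a 2-fold difference was seen in 288 and 247 features against WT, 422 and 394 against DKO, and 562 and 475 against Irf5-KO. These larger calls were 296, 460 and 589 in all under normexp and 288, 461 and 595 when only probes measured on every array were kept.

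A difference of response can lie in the starting level or in the stimulated level. Without CpG-B, Lyn-KO was higher in 1.83% and lower in 2.75% of features than WT, and higher in 3.02% and lower in 3.06% than Irf5-KO. Against DKO only 0.0742% were higher and 0.0891% lower, 15 and 18 features. With CpG-B, Lyn-KO was higher in 13.9% and lower in 11.2% than WT, in 14.7% and 16.8% than DKO, and in 17.5% and 17.4% than Irf5-KO. Accordingly, of the 1222 features with a more positive response than WT, 987 differed in the stimulated level only and 138 in the starting level only, and of the 2073 with a more negative response than DKO, 1998 differed in the stimulated level only.

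Interferon genes differed in the stimulated level. Against WT, 13 of 14 responded more strongly in Lyn-KO. Stimulated WT cells gave 5.54, 5.70 and 3.92 for Ifnb1, below each of the 3 stimulated Lyn-KO arrays, the responses differed by 3.61 ± 0.35 (adjusted p = 2.1e-06), and the stimulated levels by 2.72 ± 0.25. The stimulated level of Ifna4 differed by 3.20 ± 0.36 (response, adjusted p = 5.1e-04), and the response of Ifna5 by 3.85 ± 0.38. In DKO cells Ifnb1 read 7.61, 6.81 and 6.66 after CpG-B, between WT and Lyn-KO, and 8 of 14 responded more strongly in Lyn-KO than in DKO, Ifnb1 by 1.74 ± 0.35; under normexp it was 12. In Irf5-KO cells it reached 1.23, 0.863 and 1.11, the lowest of the 4 genotypes, a difference of 5.40 ± 0.35. When only probes measured on all 24 arrays were kept, 1 interferon gene was called against WT and 1 against Irf5-KO, and 0 against DKO. Most of the 14 dropped out of that test, since only Ifnl3 was measured on every Lyn-KO array.

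Antiviral genes differed in the starting level instead. In 23 of 44 the response was more positive than in WT, but the median difference between Lyn-KO and WT was -0.52 without CpG-B and -0.02 with it. Ifit3 read 4.26, 1.96 and 1.11 in unstimulated WT cells, with the first array highest, and 117, 113 and 104 in stimulated ones, next to 0.475, 0.390 and 0.426 and 114, 118 and 129 in Lyn-KO. The difference of response was 2.40 ± 0.42, that of the unstimulated level -2.29 ± 0.30 and that of the stimulated level 0.11 ± 0.30 (adjusted p = 0.84). The count of 23 rests in part on that first unstimulated WT array: without it 14 were called, and without the third 28. Against DKO 1 of these genes responded more and 2 less, and against Irf5-KO 4 more and 1 less, and the median difference of the stimulated level was -0.13 from DKO and -0.07 from Irf5-KO. The stimulated interferon genes differed by medians of 2.80, 1.25 and 3.81 from WT, DKO and Irf5-KO.

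**Figure D4:**
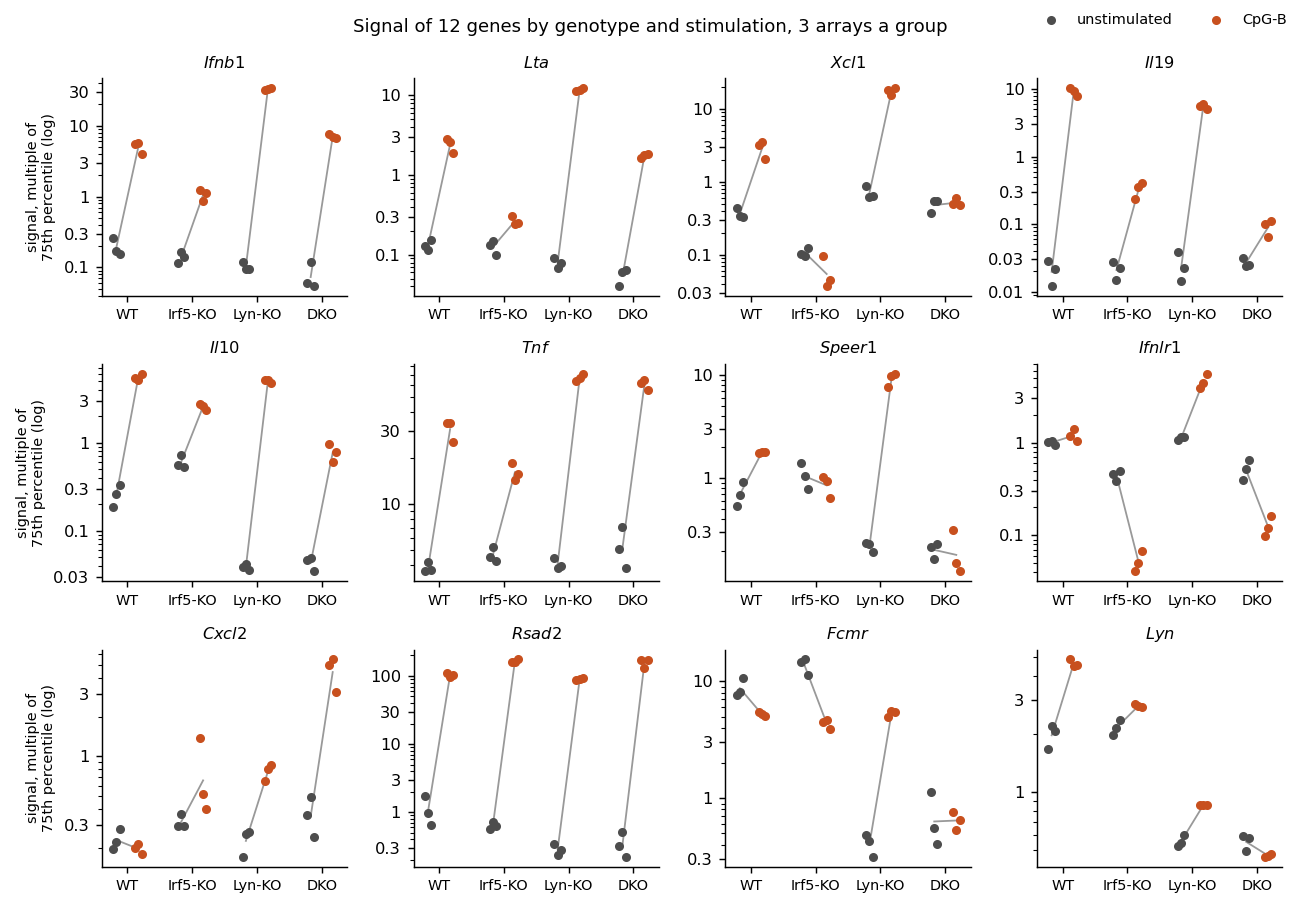
Signals of 12 genes on all 24 arrays by genotype (x axis) and treatment (colour), y axis in multiples of the array's 75th percentile on a log scale, 3 points per group and a line between group means. Ifnb1 and Xcl1 are highest in stimulated Lyn-KO cells, and Rsad2 reads 86.2, 90.3 and 94.9 in stimulated Lyn-KO and 110, 98.2 and 102 in stimulated WT cells.

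Some cytokines and most chemokines responded more strongly than in WT. Of 21 cytokines 7 responded more strongly and 1 less, and of 18 chemokines 12 more and none less, with median differences of the stimulated level of 0.16 and 0.87. Tnf read 33.9, 34.1 and 25.7 in stimulated WT cells, below all 3 Lyn-KO arrays, and its response differed by 1.03 ± 0.23 (adjusted p = 0.0067). Il1b differed by 1.40 ± 0.20 and Lta by 3.02 ± 0.26. Il6 did not pass the test against WT, at 0.50 ± 0.17 (adjusted p = 0.074), but did without the first unstimulated Lyn-KO array (adjusted p = 0.0188). Cxcl2, a neutrophil attractant, rose in Lyn-KO by 1.76 ± 0.35 while WT gave -0.22 ± 0.35, not called, a difference of 1.98 ± 0.50. For Il10 the stimulated levels were 5.15, 5.08 and 4.73 in Lyn-KO and 5.39, 5.14 and 6.03 in WT, and the larger response of Lyn-KO (adjusted p = 4.1e-06) went with the unstimulated level, which was 0.184, 0.262 and 0.329 in WT and not well above background in Lyn-KO.

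**Figure D5:**
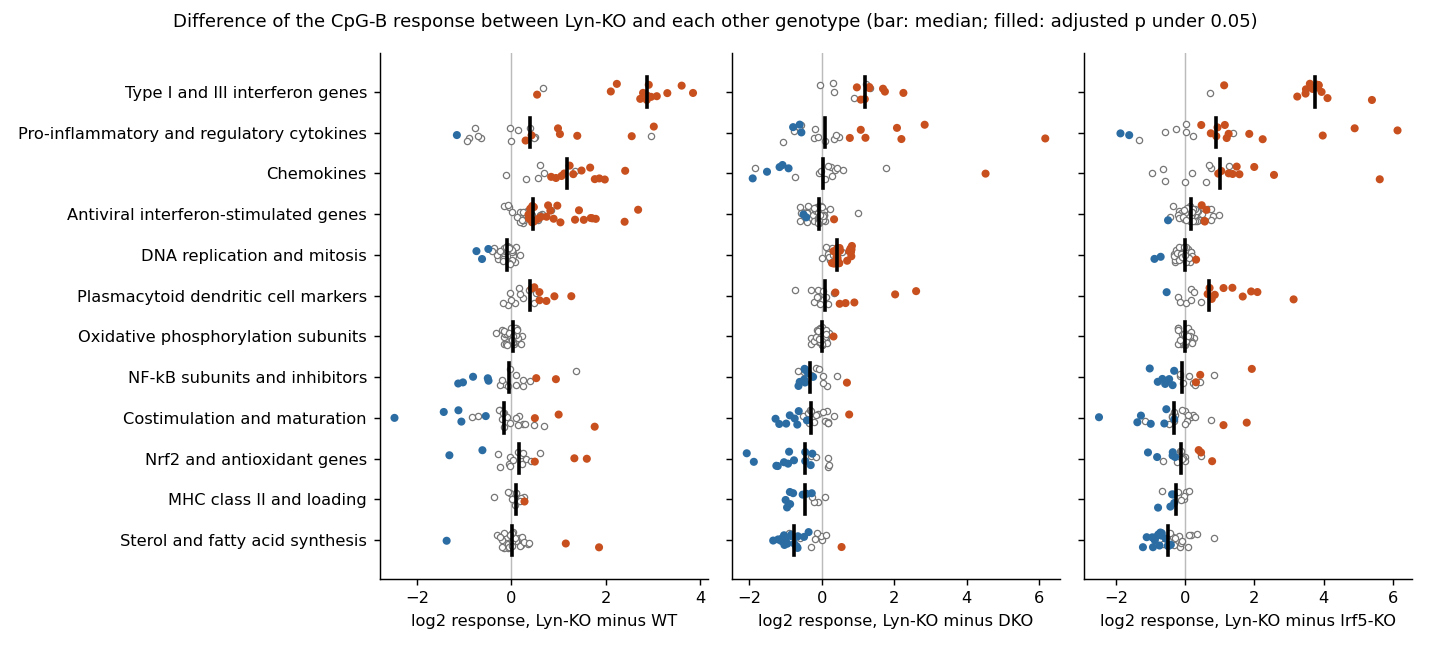
Differences of the CpG-B response, Lyn-KO minus WT, DKO and Irf5-KO (x axis, log2), for each tested gene of 12 lists (y axis), filled where the interaction term passed an adjusted p of 0.05. Bars are medians. All called interferon genes lie right of 0 in the 3 panels, and 21 of 30 sterol genes are called left of 0 against DKO.

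Against the genotypes labelled as lacking Irf5, several secreted factors stood apart. Il19 read 0.0999, 0.0656 and 0.110 in stimulated DKO cells, on no array well above background, against 5.70, 6.01 and 5.12 in Lyn-KO and 10.3, 9.33 and 8.05 in WT. Its response was larger in Lyn-KO than in DKO (adjusted p = 4.2e-08) and than in Irf5-KO (adjusted p = 6.2e-06), with no exact size since no unstimulated array read it well above background, and against WT it was not called (adjusted p = 0.25) but passed under quantile normalisation (0.0281) and normexp (0.0091). Xcl1 rose in Lyn-KO from 0.880, 0.620 and 0.633 to 18.2, 15.3 and 19.1, while DKO gave 0.367, 0.544 and 0.540 without and 0.486, 0.589 and 0.477 with CpG-B, a difference of 4.52 ± 0.39. Tnfsf14 rose in Lyn-KO and fell in DKO, to signals not well above background, and in Irf5-KO, by a change of -1.27 ± 0.22. Ifnlr1 showed the same split, with -2.04 ± 0.21 in DKO and stimulated signals not well above background in Irf5-KO. WT lay at 0.25 ± 0.21 for Ifnlr1, not called (adjusted p = 0.29). The glucocorticoid-activating enzyme Hsd11b1 changed by 3.88 ± 0.17 in Lyn-KO and 3.41 ± 0.17 in WT, against -0.85 ± 0.17 in DKO and -0.16 ± 0.17 in Irf5-KO, the last not called. Lta rose in all 4 genotypes, by 7.22 ± 0.18 in Lyn-KO, 4.20 ± 0.18 in WT and 1.08 ± 0.18 in Irf5-KO, and in DKO from signals not well above background to 1.64, 1.81 and 1.83.

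Other programmes also responded differently in Lyn-KO than in DKO or Irf5-KO. Of 30 sterol and fatty acid genes 21 responded more negatively than in DKO and 16 more negatively than in Irf5-KO, against 1 relative to WT. Hmgcs1 rose by 1.81 ± 0.09 in Lyn-KO and by 2.93 ± 0.09 in DKO. Among Nrf2 and antioxidant genes 12 of 18 responded more negatively than in DKO: Srxn1, which repairs peroxiredoxins, changed by 1.15 ± 0.11 there, and Txnrd1 differed by -1.21 ± 0.12. Nqo1 read 0.0917, 0.0632 and 0.144 in stimulated Lyn-KO cells, on 1 array well above background, and 0.528, 0.378 and 0.521 in DKO (response, adjusted p = 0.0027). Replication genes went the other way, 22 of 34 being more positive than in DKO, where the median response was -0.93 and not -0.48; Mcm7 differed by 0.82 ± 0.14. The nitric oxide synthase Nos2 rose in all 4 genotypes, and less in Lyn-KO, with differences of -1.56 ± 0.25 from DKO, -1.66 ± 0.25 from Irf5-KO and -0.87 ± 0.25 from WT (adjusted p = 0.028). The WT difference was not called without replicate 2 of either WT group, without replicate 3 of stimulated WT or of either Lyn-KO group (adjusted p from 0.0554 to 0.0762), or without the filter on dim probes (0.0712). Of 12 class II genes 8 responded more negatively than in DKO, a deeper fall, with list medians of -0.48 in Lyn-KO and -0.10 in DKO. H2-DMa differed by -0.87 ± 0.10. The activating receptor gene Pira2 fell in Lyn-KO and rose in DKO (1.02 ± 0.09) and Irf5-KO (0.87 ± 0.09), and Pirb rose in the other 3 genotypes, with differences of -0.82 ± 0.08, -0.86 ± 0.08 and -1.38 ± 0.08 from WT, DKO and Irf5-KO.

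Regulators of NF-kB, kinases and some other genes also differed from WT. Tnfaip3 rose less in Lyn-KO, a difference of -0.81 ± 0.11, and Tnip2, its binding partner, fell in Lyn-KO and rose in WT by 0.79 ± 0.08. Nfkbiz rose more, a difference of 0.94 ± 0.20. The kinase genes Fyn and Fgr, which fell in Lyn-KO, rose in WT by 0.37 ± 0.06 and 0.76 ± 0.08. Ptpn6 rose in Lyn-KO and was not called in WT at -0.01 ± 0.05, a difference of 0.54 ± 0.07. Ptpn1, which dephosphorylates Jak2 and Tyk2, rose by 2.01 ± 0.11 in WT and less in Lyn-KO, by a difference of -1.42 ± 0.16. Slamf1, a self-ligand receptor of leukocytes, and Hamp, which encodes the iron hormone hepcidin, were on no unstimulated array of either genotype well above background, and both responded less in Lyn-KO (adjusted p = 1.2e-05 and 1.6e-04). Their stimulated levels differed from WT by -2.60 ± 0.20 and -4.05 ± 0.41. Irf8, uncalled in Lyn-KO, fell in WT, DKO and Irf5-KO, with changes of -0.76 ± 0.09, -0.83 ± 0.09 and -2.26 ± 0.09.

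B lineage markers differed before stimulation, and their values stand beside the differences above. Their summed signal in unstimulated cells was 17.6 to 18.5 in Lyn-KO and 16.1 to 21.6 in DKO, against 89.1 to 133 in WT and 136 to 171 in Irf5-KO. With CpG-B it was 25.4 to 26.9, 17.5 to 19.5, 71.0 to 94.3 and 102 to 132 in the same order. Fcmr read 0.486, 0.430 and 0.314 in unstimulated Lyn-KO cells, a log2 difference of -4.43 ± 0.26 from WT, and after CpG-B 5.0, 5.53 and 5.46 in Lyn-KO and 5.44, 5.26 and 5.02 in WT cells. Its response differed from WT by 4.46 ± 0.36. Jchain, at -3.46 ± 0.30 without and -3.87 ± 0.30 with CpG-B relative to WT, stayed low in Lyn-KO. The summed plasmacytoid markers were 940 to 1000 in unstimulated Lyn-KO and 767 to 868 in WT cells and 1250 to 1380 and 862 to 933 in stimulated ones. The part of these cell types in the differences was not tested.

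Speer genes, a rodent family expressed mainly in testis, responded in Lyn-KO cells more strongly than in each of the 3 other genotypes. Speer1 went from 0.237, 0.231 and 0.195 to 7.69, 9.79 and 10.2 in Lyn-KO, a rise of 5.38 ± 0.29, and from 0.536, 0.685 and 0.923 to 1.74, 1.80 and 1.80 in WT. It gave 0.217, 0.166 and 0.233 and 0.314, 0.152 and 0.126 in DKO and 1.40, 1.05 and 0.781 and 1.02, 0.951 and 0.642 in Irf5-KO, without and with CpG-B. The difference of response was 4.03 ± 0.40 from WT, 5.54 ± 0.40 from DKO and 5.67 ± 0.40 from Irf5-KO (adjusted p = 2.5e-06, 2.0e-08 and 9.6e-09). Speer3 was at least 28.0-fold higher in Lyn-KO, Speer6-ps1 at least 32.7-fold and the related Gm6460 at least 35.7-fold. These are near-identical copies, so their probes may read 1 transcript.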

How the data were processed

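Total RNA of 24 dendritic cell cultures was read on 1-colour Agilent mouse arrays, 3 per genotype and treatment. The deposited intensity values are background-subtracted, spatially detrended spot signals from Agilent Feature Extraction, per the file headers. A deposited table of log2 values of the same arrays was used only for comparison: its values follow the scanner signals after subtraction of each array's 75th percentile and centring of each probe. From 62976 spots per array, control spots and outlier spots were left out, log2 signals were taken relative to each array's 75th percentile, and spots of a probe were averaged. Probes were named through a RefSeq gene table (GRCm38.p6): 26762 of 55681 had a symbol, and the others were not named here. The brightest probe of a gene was used: among 3223 genes with several tested probes, 171 had probes called in opposite directions. This left 20210 features, 12649 of them named.

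All 24 arrays were fitted with 8 group means in limma 3.58.1 (R 4.3.3), with Benjamini-Hochberg adjustment over all features and calls at 0.05. A difference between genotypes is the interaction term. Where no array of 1 group was well above background, the fold is a lower bound: the brighter group's mean over, per dim array, the larger of that probe's signal and the smallest signal among probes called above background. On simulated data for the Lyn-KO response over 20210 features, the fit recovered 25 of 50 changes of log2 0.5, 46 of 50 of 1, 47 of 50 of 2 and 50 of 50 of 4, with 10 false calls. Only those features were changed there, with independent noise, whereas 13920 of 20210 were called in the measured response. The adjustment is stricter with so few changes, so these rates do not carry over to the measured response.

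Same-numbered unstimulated and stimulated arrays deviated together (r = 0.28, 0.137 and 0.19), and the number is also the slide, so the replicate number as a block was run as an alternative. Other alternatives were quantile normalisation, normexp, median scaling, other probe filters, other variance settings, fewer groups and leaving out each array. The genes, the 40 gene lists and the tests were chosen with earlier results of these data known. Genes named are list members, the 25 largest rises and falls, and the 15 largest differences each way per genotype. Some members of the lists are counted but not reported by name here.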

Additional observations from a re-analysis of the deposited data

Results flagged for a closer look

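The response of Lyn-KO cells differed from that of WT in 2237 features, from DKO in 3783 and from Irf5-KO in 3935, by the interaction term in limma. Some named genes moved in opposite directions, both responses and their difference passing an adjusted p of 0.05. Differences below are Lyn-KO minus the other genotype on the log2 scale.

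Against WT, the genes that rose in Lyn-KO and fell in WT were Fcmr, with a difference of 4.46, Cd79b, at 2.25, and Clec4a4, at 1.12. Those that fell in Lyn-KO and rose in WT were Tnip2 at -1.13, Fgr at -1.04 and Fyn at -0.75.

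Against DKO, rising genes that fell there were Hsd11b1, with a difference of 4.74, Tnfsf14 at 4.11, Ifnlr1 at 4.06, Ptpn1 at 1.09 and Lyn at 0.86. Falling genes that rose there were Pira2 at -1.99, Srxn1 at -1.87, Txnrd1 at -1.21 and Irf5 at -1.05. The Irf5 probe, here and below, does not check the deletion, and the Lyn value is the signal that remained in Lyn-KO cells. No regulation of either gene is drawn from these differences.

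Against Irf5-KO, Xcl1 differed by 5.62, Fcmr by 5.37, Ifnlr1 by 5.12, Tnfsf14 by 3.50, Cd79b by 2.87, Clec4a4 by 1.51 and Zbtb46 by 0.76, all rising in Lyn-KO and falling in Irf5-KO. The Zbtb46 value is that of its brighter probe, and its other probe was called lower in Lyn-KO, at -1.99. Pira2 differed by -1.83, Tnip2 by -1.02, Fyn by -0.90 and Irf5 by -0.71, all falling in Lyn-KO and rising in Irf5-KO.

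Stimulated signals were well above background on 0 arrays for Tnfsf14 in DKO and Ifnlr1 in Irf5-KO, and on 1 for Ifnlr1 in DKO and Xcl1 in Irf5-KO, so those sizes are fitted values and not exact.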

How the results depend on the processing

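Leaving out 1 array at a time, the Lyn-KO response kept 13247 to 13558 called features, the difference from WT 1748 to 2245, from DKO 3334 to 3623 and from Irf5-KO 3429 to 4005, and 26 to 29 of 40 list medians stood above 0. Under the other alternatives the counts ran from 11522 to 18213 for the response, 2758 to 4596 against DKO and 2941 to 4795 against Irf5-KO, and 24 to 27 medians stood above 0. The difference from WT fell from 2237 to 1395 without the filter on dim probes, where more features are tested. Medians of 6 lists, none larger than 0.088 in size, changed sign in some setting. Of 214 named gene results, 199 were called. Of these, 7 lost the call in some setting (Ccl6, Cd74, Cd79a, Mgl2, Rela, Zbtb46 and the Nos2 difference from WT). Against their main value, 3 changed sign: Rela to -0.032 (adjusted p = 0.566) and Clec9a to -0.191 (0.0368) under normexp, and Unc93b1 to -0.147 (0.0236) under quantile normalisation and -0.248 under normexp; the cause was not tested. Il19 passed against WT under quantile normalisation (0.0281) and normexp (0.0091). With the replicate block, Ccl6 lost its call, Cxcl16 and Pirb gained one, and no other named call changed; the counts became 14275 for the response, 2632 against WT, 4260 against DKO and 4457 against Irf5-KO. Probes not well above background give only bounds.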
